A study of Rattus norvegicus with 24 samples.

Results

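The genes described here encode the neuregulins, the ErbB receptors that bind them or the related epidermal growth factor, and the neurotrophin BDNF with the receptor kinases of its family. They were taken by gene symbol from a table of read counts: 9 symbols were looked for (Erbb4, Erbb3, Egfr, Nrg1, Nrg2, Nrg3, Bdnf, Ntrk2 and Ntrk3), and 8 of them named a row among the 35032 genes of the table. Nrg3 had no row under that symbol and was not analysed here. All 8 passed the filter on low counts in every comparison.

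Rats were male Sprague-Dawley animals, 7 weeks old at purchase, and tissue came from the hypothalamic paraventricular nucleus (PVN) or the central amygdala (CEA), in 8 groups of 3 libraries and 24 libraries in all. NC rats were normal controls, HT rats underwent partial hepatectomy with removal of about 20% of the left liver lobe, EA rats underwent the same operation with electroacupuncture through unilateral needles at the Zusanli and Sanyinjiao acupoints before and after it, and SEA rats received the needles and the operation without current. Rats of all 4 treatments were held in the restraint device, controls included, and tissue was taken 24 h after the last stimulation. The labels do not say which rat gave which library. By the study's methods, brains were taken from different animals of a single batch, since each rat gave little tissue. The p-values below measure the spread between libraries.

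Neuregulins are growth factors made as membrane proteins, which bind ERBB3 and ERBB4 on neighbouring cells. ERBB4 is carried in the forebrain mainly by GABA interneurons, while ERBB3 is best known in the oligodendrocyte lineage. BDNF is released by neurons in an activity-dependent way and signals through the kinase TRKB, the product of Ntrk2, whereas TRKC, the product of Ntrk3, is the receptor of neurotrophin-3. Both families of receptors pass their signal on through the RAS and ERK, PI3-kinase and phospholipase C routes.

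Erbb4 lies on the reverse strand at chr9:75021790-75528644 and spans 507 kb, the longest of the 8 genes. Erbb3 (chr7:2989340-3010350, reverse strand) spans 21.0 kb and is the shortest, and Egfr (chr14:99919485-100098796, forward strand) spans 179 kb. Nrg1 (chr16:63837216-64057434, forward strand) spans 220 kb and Nrg2 (chr18:28835417-29015552, reverse strand) 180 kb. Bdnf (chr3:100768637-100819210, forward strand) spans 50.6 kb, Ntrk2 (chr17:5933729-6244676, reverse strand) 311 kb and Ntrk3 (chr1:139890560-140262503, reverse strand) 372 kb. The table names no genome build, so these positions are given as deposited. All 8 are annotated as protein coding. Counts were per gene, so the many start sites of Bdnf and the full-length and truncated forms of Ntrk2 could not be separated.

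Promoter windows of RefSeq (build GRCr8, 250 bases before to 50 after a start) were at hand for 5 of the 9 symbols, namely Erbb4, Egfr, Nrg2, Nrg3 and Bdnf, the last with 6 windows. Shown are the bases before the start for the 2 genes on which the results turn, Bdnf for its region difference and Erbb4 for its spread between libraries. Capitals mark ACGTCA, the core of the cyclic AMP response element, in Bdnf, and GGGCGG, the GC box, in Erbb4, where it reads CCGCCC on the printed strand.
Bdnf, window 4, chr3:116637608-116637857, forward strand: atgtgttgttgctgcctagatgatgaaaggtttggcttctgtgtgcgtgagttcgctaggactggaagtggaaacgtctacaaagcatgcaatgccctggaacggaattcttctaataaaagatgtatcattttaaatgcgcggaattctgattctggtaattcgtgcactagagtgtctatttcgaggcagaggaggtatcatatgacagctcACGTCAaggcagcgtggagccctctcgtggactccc
Erbb4, chr9:78045607-78045856, reverse strand: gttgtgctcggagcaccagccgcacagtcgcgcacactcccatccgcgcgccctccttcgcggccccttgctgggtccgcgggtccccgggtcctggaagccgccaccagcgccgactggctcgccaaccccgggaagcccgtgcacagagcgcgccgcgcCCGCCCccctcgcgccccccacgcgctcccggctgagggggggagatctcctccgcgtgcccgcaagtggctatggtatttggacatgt
Both motifs were searched on both strands of the whole 300-base windows. ACGTCA was in 7.94% of the 33469 RefSeq windows and in 1 of the 6 Bdnf windows, with its left end at position -36 from the start. GGGCGG was in 33.1% of the windows, and in Erbb4 its left end was at position -89. A match is a description of the letters, and the gene counts do not bear on whether a factor binds there.

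Total counts ran from 13152772 to 18607032 per library, and 1 count was worth between 0.0527 and 0.0788 CPM, the unit of level used here, which is the read count scaled to library size after the filter on low counts, with TMM factors over the 24 libraries. The labelled tissues were checked against defining markers. Sim1 and Otp, transcription factors of the PVN, had medians of 13.3 and 27.7 CPM in PVN libraries and of 0.309 and 0.566 CPM in CEA libraries. Ppp1r1b and Penk, carried by neurons of the central amygdala and the striatum alike, had medians of 2000 and 735 CPM in the CEA against 102 and 169 CPM in the PVN. CEA libraries differed in the tissue they held: the summed level of 6 markers of cortical and hippocampal excitatory neurons ran from 9.01 to 341 CPM there, against 4.75 to 25.1 CPM in the PVN, and that of 4 choroid plexus markers from 5.29 to 1739 CPM. PVN libraries differed too: the summed level of 6 PVN markers was 417 CPM in HT replicate 3 and 896 to 1333 CPM in the others. CEA EA replicate 2 had 3.80% of its counts in mitochondrial genes, against 10.1 to 14.4% in the other 11 CEA libraries.

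A set of 3 libraries, written below as the 3 low-long-gene libraries (PVN NC replicates 1 and 3 and CEA HT replicate 2), stood apart by gene length. In each library, a gene's deviation is its log2 CPM minus the median over the libraries of the same region. The 610 protein-coding genes spanning over 200 kb had median deviations of -0.43, -0.31 and -0.41 in these libraries, against -0.08 to 0.09 in the other 21, while the 3233 genes of up to 10 kb had 0.17, 0.16 and 0.24. Among the members, Erbb4 deviated furthest, by -2.19, -1.83 and -1.55, which placed it at the percentiles 1.31, 2.30 and 2.46 of the genes over 200 kb. Egfr deviated by -1.24, -1.32 and -1.43, against medians of -0.27, -0.20 and -0.29 for genes of 100 to 200 kb. Nrg2, of nearly the same span as Egfr, deviated by -0.13, 0.06 and -0.55. Nrg1 deviated by -0.77, -0.80 and -0.59. Ntrk2 deviated by -0.44, -0.43 and -0.25 and Ntrk3 by -0.45, -0.55 and -0.91. Both lay between the percentiles 19.8 and 61.6 of the genes over 200 kb. Erbb3, the shortest member, deviated by -0.42, -0.01 and -0.48. The members thus did not rank by span. Bdnf deviated upward in the PVN libraries (0.46 and 0.23), where the genes of 30 to 100 kb, its own range, had medians of -0.10 and -0.08, and by -0.89 in CEA HT replicate 2. Values without these libraries are given beside the results below, and what sets the libraries apart was not tested.

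**Figure D1:**
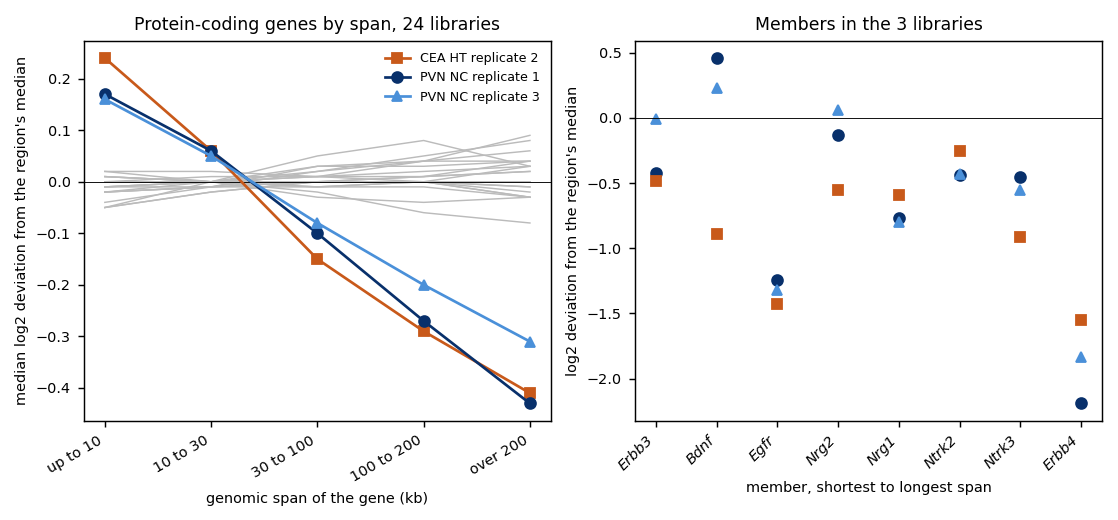
Left, median log2 deviation from the region's median (vertical axis) of protein-coding genes by genomic span in kb (horizontal axis) for 24 libraries, with 3 libraries in colour and 21 in grey. Right, the log2 deviation of the 8 members, from shortest to longest span, in the 3 coloured libraries, where Erbb4 lies lowest at -2.19, -1.83 and -1.55.

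Set on a per-length scale (CPM per kb of the annotated length in the table), Ntrk2 was the most abundant member in both regions, with a mean of 79.7 ± 10.3 CPM per kb in the PVN and 59.1 ± 4.87 in the CEA (SD, n = 12 libraries each). In the PVN, Ntrk3 followed at 13.0 ± 2.05, Erbb3 at 8.24 ± 0.782, Erbb4 at 6.53 ± 2.39, Bdnf at 3.83 ± 0.592, Nrg2 at 2.25 ± 0.213, Nrg1 at 1.84 ± 0.382 and Egfr at 1.36 ± 0.454 CPM per kb. Neighbours whose library ranges overlapped in that order were Erbb3 and Erbb4, Erbb4 and Bdnf, Nrg2 and Nrg1, and Nrg1 and Egfr.

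In the CEA the order was different. Erbb3 came next after Ntrk2 at 17.2 ± 2.76 CPM per kb, followed by Ntrk3 at 10.5 ± 2.86, Erbb4 at 5.58 ± 1.41, Nrg2 at 3.57 ± 0.669, Egfr at 1.65 ± 0.427, Nrg1 at 1.43 ± 0.311 and Bdnf at 0.644 ± 0.493 (SD, n = 12). The ranges of all neighbours overlapped there except Ntrk2 with Erbb3 and Nrg2 with Egfr. Bdnf thus moved from the middle of the order in the PVN to its end in the CEA. These levels pool 4 treatments and depend on the annotated lengths.

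**Figure D2:**
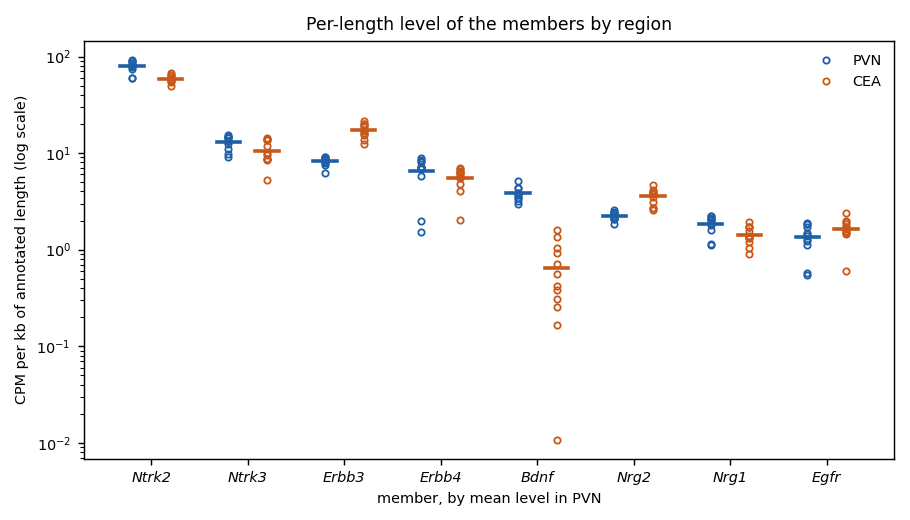
Level of each member in CPM per kb of annotated length (vertical log axis) in the 12 PVN and 12 CEA libraries, with a bar at the mean of each region. Ntrk2 is highest in both regions (means 79.7 and 59.1), and Bdnf has the widest spread in the CEA.

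The spread between libraries of a region differed between members. Without regard to treatment, the coefficient of variation of CPM over the 12 PVN libraries was 36.6% for Erbb4, 33.3% for Egfr and 20.7% for Nrg1, and it was 12.6%, 18.7% and 10.2% in the 10 PVN libraries without NC replicates 1 and 3. For Ntrk2 it was 12.9% over 12 libraries and 6.59% over 10, for Ntrk3 15.8% and 9.73%, for Bdnf 15.5% and 10.8%, for Erbb3 9.50% and 6.39% and for Nrg2 9.46% and 9.93%. Of these 8 members, Nrg2 was the only one with no narrower spread in the 10 libraries. NC replicates 1 and 3 were set apart by their deviations, so the narrower spread is no separate result. In the CEA Bdnf varied most, with 76.5% over 12 libraries and 73.7% without HT replicate 2. Erbb4 and Egfr had 25.2% and 25.8% there, and 15.3% and 16.1% without that library.

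The comparison of the CEA with the PVN asked where each member was expressed more. Over all 24 libraries, Erbb3 and Nrg2 were higher in the CEA, and Bdnf, Ntrk2 and Nrg1 were higher in the PVN. Erbb3 was 2.09-fold higher in the CEA, and Bdnf was at 0.164 of its PVN level there. In the 6 NC libraries alone, Erbb3 and Bdnf passed the test. Region differences were common in this table: 56.3% of genes passed at an adjusted p under 0.05 over all libraries and 26.4% in the NC libraries (edgeR quasi-likelihood test, treatment as an additive term in the first). The members' shares, 5 of 8 (62.5%) and 2 of 8 (25%), were close to these. DESeq2 called 5 and 2 members as well. The share of all genes whose ranges do not overlap between the regions was not counted.

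Bdnf, the ligand of TRKB, did not overlap between the regions. Its 12 PVN libraries ran from 18.0 to 31.3 CPM with a median of 22.8, and its 12 CEA libraries from 0.0653 to 9.75 CPM with a median of 2.99. The lowest value, in CEA HT replicate 1, rests on 1 read. The log2 difference, CEA minus PVN, was -2.61 (SE 0.33, edgeR adjusted p = 3.49e-07) over all libraries, -2.51 without the 3 low-long-gene libraries, and -2.20 (SE 0.44, edgeR adjusted p = 0.0114) in the NC libraries. In these, PVN replicates 1 to 3 had 31.3, 22.7 and 26.7 CPM and CEA replicates 1 to 3 had 2.34, 5.56 and 9.75 CPM, so every PVN library was above every CEA library. Without PVN NC replicates 1 and 3, leaving 1 PVN library, the NC difference was -1.90 with an adjusted p of 0.170 by edgeR.

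Ntrk2, the receptor of BDNF, was also lower in the CEA, with 528 to 720 CPM and a median of 627 there against 644 to 990 CPM and a median of 873 in the PVN. The ranges overlapped only through PVN NC replicates 1 and 3, at 644 and 647 CPM, and without them the PVN began at 797 CPM. The log2 difference was -0.43 (SE 0.06, edgeR adjusted p = 3.58e-06), and -0.44 without the 3 low-long-gene libraries. Ntrk3, the receptor of neurotrophin-3, had 15.9 to 43.6 CPM in the CEA and 27.9 to 46.6 CPM in the PVN, with a log2 difference of -0.30 (SE 0.13, edgeR adjusted p = 0.0534). Its call was on the edge: without the 3 low-long-gene libraries the difference was -0.29 with an edgeR adjusted p of 0.0245.

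Erbb3 separated the regions without overlap. It had 37.3 to 54.2 CPM in the PVN (median 50.1) and 73.0 to 127 CPM in the CEA (median 102), a log2 difference of 1.06 (SE 0.08, edgeR adjusted p = 1.06e-10), and of 1.10 without the 3 low-long-gene libraries. In the NC libraries PVN replicates 1 to 3 had 37.3, 51.1 and 49.8 CPM and CEA replicates 95.3, 127 and 91.0 CPM, a log2 difference of 1.18 (SE 0.18, edgeR adjusted p = 0.00411). Without PVN NC replicates 1 and 3 it was 1.08 with an edgeR adjusted p of 0.0838. The summed level of 8 oligodendrocyte markers, all 8 measured, moved with the region too, from 9931 to 16647 CPM in the PVN and from 26339 to 43604 CPM in the CEA. That of 6 precursor markers was 427 to 605 CPM in the PVN and 730 to 1039 CPM in the CEA. The part of these cells in the Erbb3 difference was not tested. In tissue of mixed cells, more cells of a type and more RNA per cell cannot be told apart, here and in all results that follow.

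Erbb4, the neuregulin receptor of interneurons, had no called region difference, with 5.82 to 33.9 CPM in the PVN (median 26.9) and 7.75 to 26.7 CPM in the CEA (median 22.9). The log2 difference was -0.21 (SE 0.22, edgeR adjusted p = 0.429). Once the 3 low-long-gene libraries were left out, the PVN ran from 22.0 to 33.9 CPM and the CEA from 15.3 to 26.7 CPM, and the difference was -0.35 with an edgeR adjusted p of 0.000661. In the NC libraries alone the sign changed with them: 0.61 (SE 0.57, edgeR adjusted p = 0.470) with all 6 and -0.41 without PVN NC replicates 1 and 3, which leaves 1 PVN library. Without PVN NC replicate 2 the NC difference was 1.75 for Erbb4 (edgeR adjusted p = 0.00157) and 1.67 for Egfr (edgeR adjusted p = 0.00414), up from 0.85 with all 6. Egfr, the receptor of epidermal growth factor, had 2.27 to 7.83 CPM in the PVN and 2.50 to 10 CPM in the CEA, and over all libraries a log2 difference of 0.28 (SE 0.19, edgeR adjusted p = 0.222), or 0.20 without the 3 libraries (edgeR adjusted p = 0.131).

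Over all libraries the neuregulins differed in direction. Nrg2 had 5.87 to 8.28 CPM in the PVN and 8.13 to 15.0 CPM in the CEA, where only HT replicate 2 (8.13 CPM) fell inside the PVN range, and the log2 difference was 0.67 (SE 0.09, edgeR adjusted p = 2.08e-06), or 0.76 without the 3 libraries. Nrg1 had 5.92 to 11.8 CPM in the PVN and 4.74 to 10.3 CPM in the CEA, with a log2 difference of -0.35 (SE 0.12, edgeR adjusted p = 0.0184), or -0.37 without the 3 libraries (edgeR adjusted p = 0.00354). The Nrg1 ranges overlapped over most of their width. In the NC libraries neither passed and both differences were above 0, at 0.44 for Nrg2 (SE 0.19, edgeR adjusted p = 0.129) and 0.15 for Nrg1 (SE 0.23, edgeR adjusted p = 0.671). Without PVN NC replicates 1 and 3 that of Nrg1 was -0.13.

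**Figure D3:**
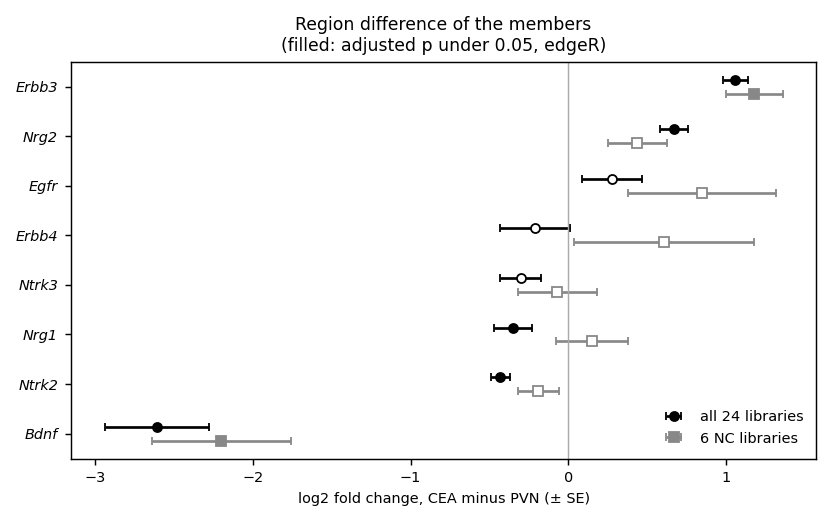
Log2 fold change of each member, CEA minus PVN, with its SE (horizontal axis), from all 24 libraries (circles) and from the 6 NC libraries (squares), filled where the edgeR adjusted p was under 0.05. Bdnf lies at -2.61 and -2.20, Erbb3 at 1.06 and 1.18, and Erbb4 changes sign between the fits (-0.21 and 0.61).

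Of 60 other genes of both pathways, 58 had a row and 53 were tested between regions. Over all libraries 36 passed (edgeR adjusted p under 0.05), 26 with the CEA above the PVN and 10 with the PVN above, which is 67.9% against the 56.3% of all genes. Without the 3 low-long-gene libraries 37 passed. Among those with the smallest p by edgeR higher in the CEA were Tgfa, a ligand of the epidermal growth factor receptor (log2 difference 0.99, SE 0.07), and Sort1, the sorting receptor of neurotrophin precursors (0.95, SE 0.09). Those with the smallest p higher in the PVN were the convertase Pcsk5 (-1.33, SE 0.07), the adaptor Frs3 (-0.78, SE 0.06) and the transcription factor Stat5b (-0.82, SE 0.07). By size, the convertase Pcsk1 had the largest difference in that direction (-2.19, SE 0.19). In the NC libraries 20 of 53 passed (37.7% against 26.4%), 15 with the CEA above and 5 with the PVN above. There Sort1 (1.40, SE 0.20), Tgfa (1.02, SE 0.14) and Erbin, a scaffold of ERBB2 (0.69, SE 0.11), had the smallest p of those higher in the CEA. Pcsk5 (-1.47, SE 0.18), Frs3 (-0.97, SE 0.14) and Pcsk1 (-1.56, SE 0.36) had the smallest of those higher in the PVN. Without PVN NC replicates 1 and 3 the NC count was 1, with a single PVN library left, and the share of all genes passing fell to 2.46%.

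Surgery was addressed by HT against NC in the PVN. No member passed the adjusted test, by edgeR (0 of 8, lowest adjusted p 0.418) or by DESeq2 (0 of 8), and 0.0120% of all genes did by edgeR. At an unadjusted p under 0.05 stood 2 of 8 members, Nrg1 and Ntrk2, both with higher values in HT, against 11.0% of all genes. The members' median log2 difference was 0.31, against -0.01 over all genes tested, and without NC replicates 1 and 3 it turned to -0.11, against 0.01. It was 0.50 without NC replicate 2, 0.18 without replicate 1 and 0.14 without replicate 3.

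Nrg1 had 6.01, 8.50 and 5.92 CPM in PVN NC replicates 1 to 3 and 10.8, 11.8 and 9.91 CPM in HT. Every HT library was above every NC library, and NC replicates 1 and 3 were the lowest of the region. The log2 difference, HT minus NC, was 0.67 (SE 0.19, unadjusted p = 0.00904 by edgeR across all genes). Ntrk2 had 644, 841 and 647 CPM in NC and 870, 855 and 990 CPM in HT, again with NC replicate 2 close to HT and the other two low. Its log2 difference was 0.35 (SE 0.13, unadjusted p = 0.0281 by edgeR across all genes). Without NC replicates 1 and 3 the differences were 0.34 for Nrg1 and 0.10 for Ntrk2. That setting leaves 1 NC library, which is assumed to vary like the 3 HT libraries. Some marker sums separated the PVN NC and HT groups as well. PVN markers had 1003 to 1333 CPM in NC and 417 to 954 CPM in HT. Choroid plexus markers had 8.80 to 9.60 and 4.95 to 6.89 CPM. Cortical and hippocampal excitatory markers had 4.75 to 19.4 and 20.7 to 23.9 CPM, and the other marker lists overlapped. The part of tissue content in these differences was not tested.

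For Erbb4 the NC group was split. NC replicates 1 and 3 had 5.82 and 7.47 CPM and NC replicate 2 had 30.7 CPM, while HT had 27.0, 26.9 and 26.3 CPM, EA 22.0, 27.3 and 32.3 CPM and SEA 31.5, 26.4 and 33.9 CPM. The NC libraries thus lay on both sides of the HT group. The log2 difference was 0.86 (SE 0.56, edgeR adjusted p = 0.483) with all 3, 2 (adjusted p 0.000357 by edgeR) without NC replicate 2, and -0.21 without NC replicates 1 and 3. Egfr showed the same split, with 2.40, 7.68 and 2.27 CPM in NC and 5.99, 5.72 and 5.31 CPM in HT. Its log2 difference was 0.45 (SE 0.46) with all 3, 1.27 (edgeR adjusted p = 0.00681) without NC replicate 2 and -0.45 without replicates 1 and 3.

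Leaving out PVN NC replicate 2 raised the members called from 0 to 5 of 8, namely Erbb4, Egfr, Nrg1, Ntrk2 and Ntrk3, and all genes called from 2 to 3418 of 16939 (20.2%). Leaving out replicates 1 and 3, with 1 NC library left, gave 0 members called and 1 of all 17469 genes tested (0.00572%). Of the other pathway genes 0 of 52 passed by edgeR and 0 by DESeq2, and 8 had an unadjusted p under 0.05, 7 with higher values in HT.

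Electroacupuncture and sham needling after surgery were compared with surgery alone and with each other in the PVN. The 8 members lay close together in these groups: log2 differences ran from -0.07 to 0.13 for EA against HT, from -0.18 to 0.23 for SEA against HT and from -0.16 to 0.20 for EA against SEA. In each of the 3 comparisons 0 of 8 members passed by edgeR, 0 by DESeq2 and 0 at an unadjusted p under 0.05. All genes passing by edgeR were 0.0961% for EA against HT and 0.00% for the others, and at an unadjusted p under 0.05 they were 5.67% for EA against HT, 4.38% for SEA against HT and 5.21% for EA against SEA. Bdnf, for example, had 26.6, 22.5 and 18.0 CPM in HT, 19.4, 21.0 and 23.3 CPM in EA and 22.8, 20.9 and 23.4 CPM in SEA. These values overlapped in all 3 groups. Of 52 other pathway genes 0 passed by edgeR or DESeq2 in each of the 3 comparisons, and 2, 2 and 1 had an unadjusted p under 0.05. The HT libraries are shared by the first and second of these comparisons.

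**Figure D4:**
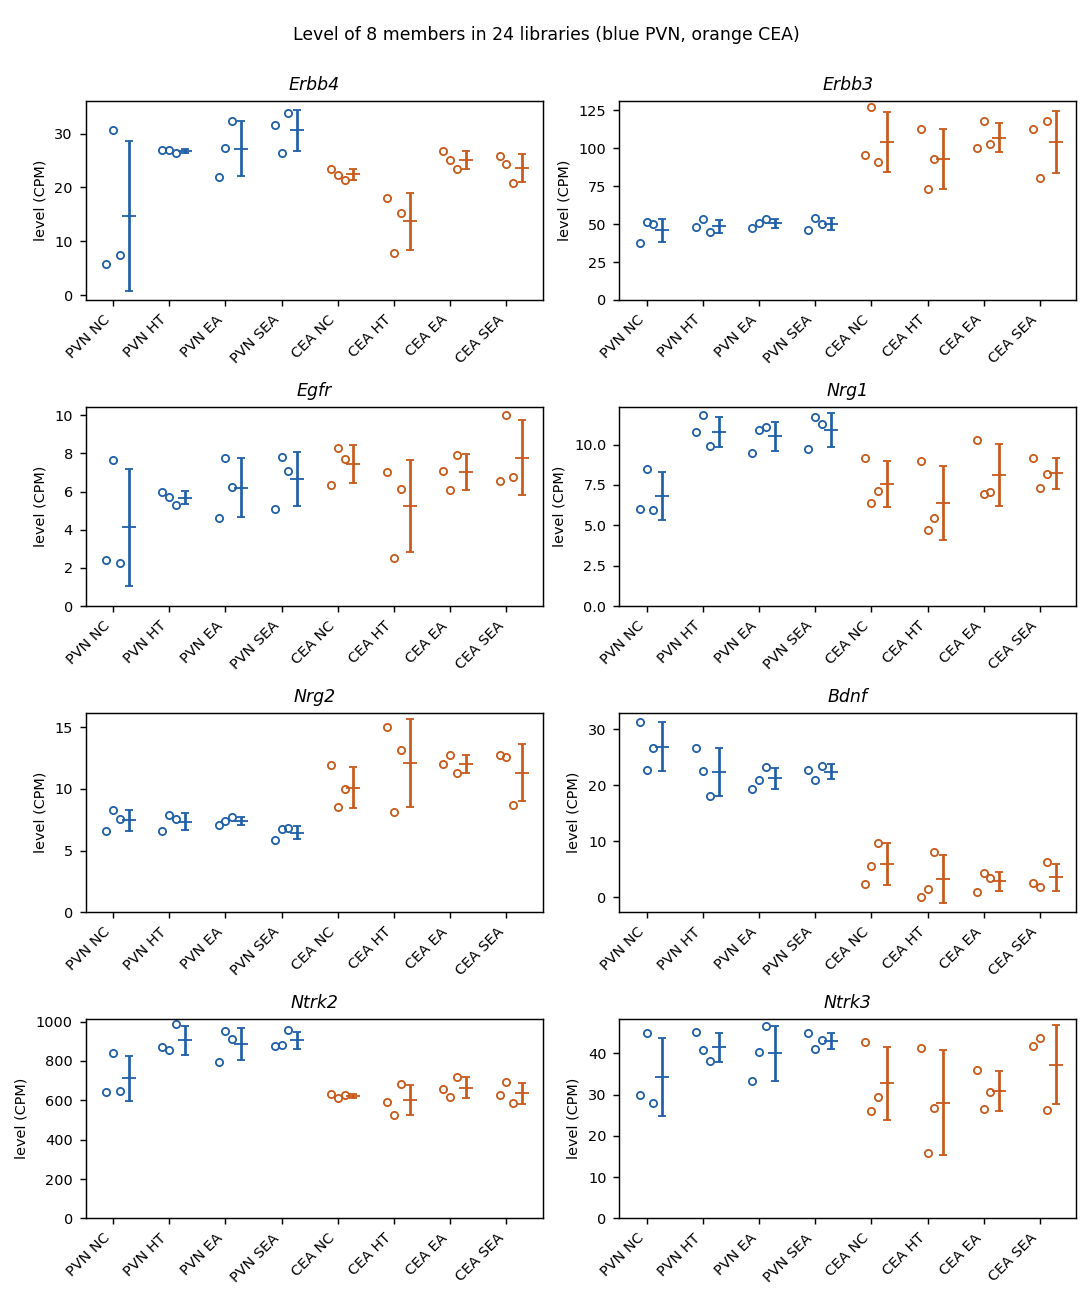
Level in CPM (vertical axis) of the 8 members in the 3 libraries of each of 8 groups (circles, PVN blue and CEA orange), with the mean and SD beside them. In Erbb4 and Egfr 2 PVN NC libraries and 1 CEA HT library lie low, Bdnf and Erbb3 separate the regions without overlap, and the Erbb4 values of CEA HT lie below those of the other CEA groups. The share of all genes with such separations was not counted.

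In the CEA, by edgeR without a replicate block and with all libraries, Erbb4 was the only member with an unadjusted p under 0.05 in a treatment comparison. It had 23.5, 22.3 and 21.4 CPM in NC replicates 1 to 3, 18.0, 7.75 and 15.3 CPM in HT, 26.7, 25 and 23.5 CPM in EA and 25.8, 24.3 and 20.8 CPM in SEA. The 3 HT libraries were the lowest of the 12, and they overlapped with none of the other 3 groups. The same 3 libraries enter each of these separations, and the share of all genes so separated was not counted. The differences did not pass the adjusted test in any of the comparisons.

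For HT against NC the log2 difference of Erbb4 was -0.69 (SE 0.29, unadjusted p = 0.0462 and adjusted p = 0.918 by edgeR). Erbb4 was the only member of 8 with an unadjusted p under 0.05 in this fit, against 3.75% of all genes, and 0 of 8 members and 0.00% of all genes passed the adjusted test by edgeR. DESeq2 called 0 members and 24 of all genes. Without HT replicate 2, the low-long-gene library, the Erbb4 difference was -0.40 with an unadjusted p of 0.0231 and an adjusted p of 0.986 by edgeR across all genes. Both remaining HT libraries then still lay below every NC library. In the same setting the difference of Nrg2 was 0.50 (unadjusted p = 0.0340 and adjusted p = 0.986 by edgeR across all genes), up from 0.28. Of 52 other pathway genes 0 passed by edgeR or DESeq2 and 1 had an unadjusted p under 0.05.

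For EA against HT the log2 difference of Erbb4 was 0.86 (SE 0.29, unadjusted p = 0.0169 and adjusted p = 0.930 by edgeR), and 0.59 without HT replicate 2 (unadjusted p = 0.00732 and adjusted p = 0.992 by edgeR). Without EA replicate 2, the library low in mitochondrial counts, it was 0.87 (unadjusted p = 0.0407 and adjusted p = 0.999 by edgeR). For SEA against HT it was 0.75 (SE 0.30, unadjusted p = 0.0369 and adjusted p = 0.959 by edgeR), and 0.47 without HT replicate 2. These 2 comparisons and HT against NC share the 3 HT libraries. For EA against SEA, which does not use them, the difference was 0.10 (SE 0.12) and 0 of 8 members had an unadjusted p under 0.05. Some marker sums also separated HT from EA in the CEA. The central amygdala list had 3442 to 4563 CPM in HT and 2249 to 3049 CPM in EA. The striatal list had 3015 to 5049 and 1775 to 2913 CPM, and the other marker lists overlapped. Both lists hold Ppp1r1b, and the part of tissue content in the Erbb4 difference was not tested.

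In each of these 3 comparisons 0 of 8 members and 0.00% of all genes passed the adjusted edgeR test, and DESeq2 called 0 members. The shares of all genes at an unadjusted p under 0.05 were 3.19% for EA against HT, 3.07% for SEA against HT and 1.99% for EA against SEA, beside 1, 1 and 0 of 8 members. The other pathway genes gave 0 of 52 by edgeR and by DESeq2, and 1, 0 and 0 at an unadjusted p under 0.05. The gene counted for EA against HT was Pik3cb, a catalytic subunit of PI3-kinase, named after its values were seen, and it was also the gene counted for HT against NC (-0.37 there, SE 0.15, and 0.54 for EA against HT, SE 0.21).

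For the remaining 7 members in the CEA, the values of HT and NC are set side by side where the spread was widest. Egfr had 6.36, 8.29 and 7.69 CPM in NC and 7.05, 2.50 and 6.13 CPM in HT, where replicate 2 alone lay apart. Nrg1 had 9.18, 6.39 and 7.10 CPM in NC and 9.01, 4.74 and 5.47 CPM in HT, and Ntrk3 42.7, 25.9 and 29.4 CPM in NC and 41.3, 15.9 and 26.8 CPM in HT. In both genes the groups overlapped, replicate 1 was the highest of each group, and within each same-numbered pair HT lay below NC. With the replicate number as a block, 0 of 8 members passed the adjusted edgeR test in HT against NC. Bdnf ranged so widely within groups (2.34 to 9.75 CPM in NC and 0.0653 to 8.17 CPM in HT) that its log2 difference of -0.83 had an SE of 1.07. With the replicate block it was -1.58 (unadjusted p = 0.0483 and adjusted p = 0.749 by edgeR across all genes).

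Whether the regions differed in their response was tested by the interaction of region and treatment. For HT against NC, CEA minus PVN, 0 of 8 members passed by edgeR (lowest adjusted p 0.413) and 0 by DESeq2, and 0.00% of all genes passed by edgeR. Below an unadjusted p of 0.05 in this fit across all genes stood 2 of 8 members, against 12.1% of all genes. They were Erbb4 (-1.57, SE 0.71) and Nrg1 (-0.91, SE 0.36), at unadjusted p-values of 0.0476 and 0.0282 by edgeR. Without the 3 low-long-gene libraries these differences of log2 differences were -0.21 and -0.39, and without PVN NC replicate 2 that of Erbb4 was -2.72 with an edgeR adjusted p of 0.0129, where 693 of all 17622 genes passed (3.93%). For EA against HT, 0 of 8 members passed by edgeR or DESeq2 and 0.00% of all genes passed by edgeR. Erbb4 (0.83, SE 0.34, unadjusted p of 0.0305 and adjusted p of 0.945 by edgeR) alone stood below an unadjusted p of 0.05, against 4.52% of all genes. Without CEA HT replicate 2 the Erbb4 value was 0.54 with an unadjusted p of 0.0210 and an adjusted p of 0.698 by edgeR. Of the other pathway genes 0 of 53 and 0 of 52 passed the 2 interactions by edgeR and by DESeq2, and 8 and 1 had an unadjusted p under 0.05.

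The spread of Bdnf among CEA libraries ran beside that of 3 marker lists, of general neurons, of cortical and hippocampal excitatory neurons and of thalamus. CEA HT replicate 1, with Bdnf at 0.0653 CPM, had the lowest summed level of 6 general neuron markers (2098 CPM), of 6 markers of cortical and hippocampal excitatory neurons (9.01 CPM) and of 4 thalamic markers (38.0 CPM). CEA NC replicate 3, with the highest Bdnf (9.75 CPM), had 3330, 336 and 425 CPM. Over the 12 CEA libraries, log2 Bdnf followed the log2 sum of the neuron list with Pearson's r = 0.88 (permutation p = 5e-05, adjusted 0.0026) and Spearman's rho = 0.89 (permutation p = 0.0002, adjusted 0.0156). With the excitatory list r was 0.86 (permutation p = 8e-05, adjusted 0.00277) and rho 0.87 (permutation p = 0.00061, adjusted 0.0211). With the thalamic list r was 0.88 (permutation p = 4e-05, adjusted 0.0026) and rho 0.88 (permutation p = 0.0003, adjusted 0.0156). Without the 2 libraries farthest from the median of the list, r was 0.83, 0.79 and 0.88, and without CEA HT replicate 2 it was 0.89, 0.88 and 0.88.

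These were the 3 of 104 relations between the 8 members and 13 marker lists with both adjusted p-values under 0.05 (two-sided permutation tests with 100000 resamples, Benjamini-Hochberg over the 104). Once each treatment's mean was subtracted from both measures, an alternative chosen after seeing the data, r over the 12 libraries was 0.91 for the neuron list, 0.93 for the excitatory list and 0.89 for the thalamic list. Exact permutation p-values within treatments were 0.000772, 0.00154 and 0.000772, unadjusted, and 0.000772 is the smallest that the 1296 permutations can give. Every PVN library had more Bdnf (18.0 CPM or more) than every CEA library. Across the regions the lists differed: the excitatory list had 4.75 to 25.1 CPM in the PVN against 9.01 to 341 CPM in the CEA, the thalamic list had 301 to 545 CPM in the PVN against 38.0 to 503 CPM in the CEA, and the neuron list 2351 to 2785 CPM against 2098 to 3330 CPM. The part of these cells in the Bdnf levels was not tested. Erbb4 had no such relation with the 6 GABA neuron markers over the 12 CEA libraries (r = -0.02, rho = 0.38, adjusted permutation p-values 0.997 and 0.603), although r was 0.82 without CEA HT replicate 2. Erbb3 with the oligodendrocyte list had r = 0.41 and rho = 0.60 (adjusted permutation p-values 0.624 and 0.261), with r = 0.81 without CEA HT replicate 2 and -0.06 without the 2 libraries farthest from the median of the list.

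**Figure D5:**
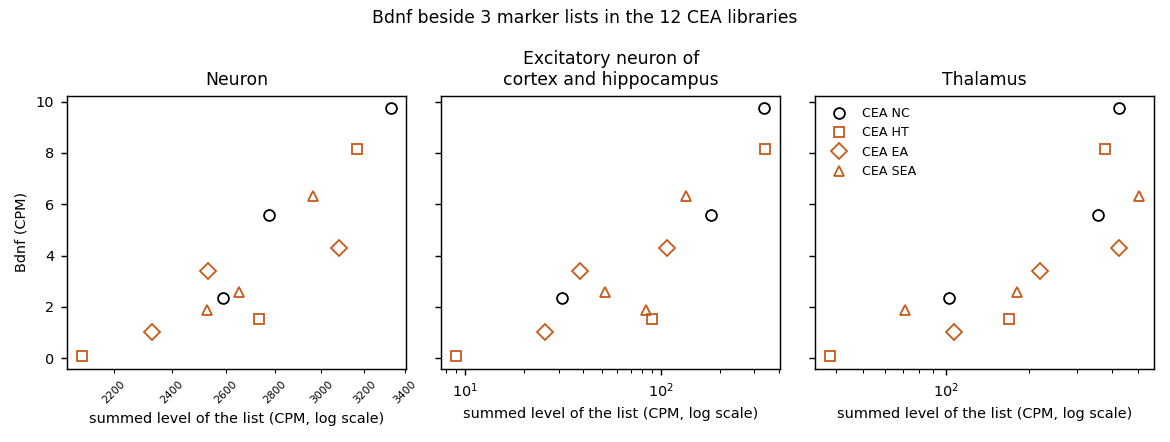
Bdnf in CPM (vertical axis) against the summed CPM of 3 marker lists (horizontal log axes) in the 12 CEA libraries, with a symbol for each treatment. Bdnf is lowest (0.0653 CPM) in the library with the lowest sums (2098, 9.01 and 38.0 CPM) and highest (9.75 CPM) in an NC library with 3330, 336 and 425 CPM.

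Within groups, some members varied together over the 24 libraries. Pearson's r of log2 CPM after subtracting each group's mean is given as a description, since all genes of a library share its depth and tissue. It was 0.84 between the receptors Erbb4 and Egfr, 0.82 between Nrg2 and Ntrk3, 0.79 between Egfr and Ntrk2 and 0.78 between Nrg1 and Ntrk3. In the 21 libraries without the 3 low-long-gene libraries these were 0.76, 0.76, 0.70 and 0.72. Bdnf went against Nrg1 (-0.65) and Ntrk3 (-0.56) over 24 libraries, with -0.69 and -0.63 over 21. With the ErbB receptors Bdnf had values from -0.20 to -0.09 over 24 libraries, and with its receptor Ntrk2 it had 0.05 over 24 and 0.11 over 21 libraries.

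Among 14624 genes with a mean of at least 1 CPM, the pattern most like that of Erbb4 by the same measure over 24 libraries was that of AABR07014974.1 (r = 0.98) and Stox2 (0.97). Egfr was most like Slc1a2, the astrocytic glutamate transporter (0.95), and Gfod1 (0.94), and Erbb3 most like Rffl (0.93) and the netrin receptor Unc5b (0.91). For Nrg1 these were Zgpat (0.86) and Rab43 (0.84), and for Nrg2 the protocadherin Pcdhb21 (0.92) and AABR07012826.1 (0.90). Bdnf was most like the transcription factor Nhlh2 (0.95) and Rspo3, a secreted enhancer of WNT signalling (0.95). Ntrk2 was most like the metalloproteinase Mmp16 (0.88), and Magi3 (0.96) was among the genes most like Ntrk3. In the 21 libraries without the 3 low-long-gene libraries, the r of the genes named here with their member ran from 0.82 for Rab43 to 0.96 for AABR07014974.1.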

How the data were processed

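Strand-specific mRNA libraries were made from 24 PVN and CEA samples. The authors mapped reads with HISAT2 and counted them with featureCounts (versions not given in the sources used here), and the deposited table holds raw counts per gene. Its annotation was in the table, a second header line inside it was dropped (it numbers CEA EA libraries 2 and 3 the other way round, which touches only their names and the replicate block), and members were matched by symbol. Members, gene lists and tests were chosen with earlier results of these data known. Counts were filtered (filterByExpr), scaled (TMM) and tested with edgeR 4.0.16 (quasi-likelihood, two-sided, R 4.3.3), with Benjamini-Hochberg adjustment over all genes tested and a threshold of 0.05. The SE is the log2 difference divided by the square root of F. Each pairwise fit held only the groups compared. DESeq2 1.42.0, RLE scaling, no filter, a replicate block and leaving out single libraries were alternatives. A pairwise and an interaction fit were run on simulated counts with large changes and the same dispersion for every gene. That simulation held no outlying libraries, so it does not bear on results that move with single libraries. The study's methods place the brain samples in different animals of a single batch, and the labels do not tie libraries to rats. Same-numbered libraries deviated together (all 3 correlations over 0.1) only for CEA HT against NC (0.19 to 0.33) and CEA against PVN in NC (0.12 to 0.31), as a hint from the data. Full statistics are printed for members with an unadjusted p under 0.05, for region differences, and for Erbb4, Egfr and Bdnf also where libraries of a group split, which was chosen after their values were seen. Of pathway genes, up to 3 per direction with the smallest p among those called are named. Values of a few genes that these rules select are not reported here.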

Additional observations from a re-analysis of the deposited data

How the results depend on the processing

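Of the named log2 differences, 446 values under alternatives kept their direction and their side of the threshold, 17 passed it newly, 2 lost it and 5 reversed. The reversals were Erbb4 (-0.21) and Egfr (-0.45) in PVN HT against NC, and Erbb4 (-0.41) and Nrg1 (-0.13) in CEA against PVN in NC, without PVN NC replicates 1 and 3, an alternative chosen after seeing the data, as were all that leave out the 3 low-long-gene libraries, and Nrg1 in the latter without CEA NC replicate 1, where single leave-outs ran from -0.01 to 0.34. Leaving out 1 library at a time, members called in PVN HT against NC ran from 0 to 5 and pathway genes from 0 to 22, the highest without PVN NC replicate 2. For CEA against PVN in NC, members called ran from 2 to 4 and pathway genes from 13 to 29, and both were lower, 0 and 1, without PVN NC replicates 1 and 3, which leaves 1 PVN library. All genes called there ran from 14.3% to 36.1% over the single leave-outs and were 2.46% without both. For the region difference in HT against NC the ranges were 0 to 1 and 0 to 5, the highest without PVN NC replicate 2, where 693 of 17622 genes passed (3.93%) against 0 with all libraries. With a replicate block, Ntrk3 over all libraries was -0.32 (edgeR adjusted p = 0.0372), and the replicate block changed no count of members or pathway genes by over 1.5 times. RLE scaling, DESeq2 and the fit without a filter changed none either. The cause of these changes was not tested. Precision is limited by 3 libraries a group, and for Bdnf in the CEA also by counts as low as 1.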
